A study of Arabidopsis thaliana with 27 samples.

Results

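The genes described here are 7 numbered lipid transfer protein genes of Arabidopsis, out of 34218 genes in a table of leaf RNA: LTP1 (AT2G38540), LTP2 (AT2G38530), LTP3 (AT5G59320), LTP4 (AT5G59310), LTP5 (AT3G51600), LTP6 (AT3G08770) and LTP12 (AT3G51590). They were taken by locus number from a set named for LTP3 and LTP4. The set was chosen from earlier results on the expression of these genes in the same samples, without a threshold, and which values led to it is not recorded. Their adjusted p-values therefore place each change against the spread between samples and are not independent support. A mean of at least 10 normalized counts in at least 1 group let 6 of the 7 into the test, with 18785 genes in all, and left out LTP12. LTP6 passed through well-watered WT, drought-treated GC::AtTOR and 35S::AtTOR, and re-watered 35S::AtTOR leaves.

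Non-specific lipid transfer proteins are small, secreted proteins folded around a hydrophobic tunnel that holds fatty acids and other lipids. They are abundant in the epidermis and cell wall, where they are linked to the laying down of the cuticle, and several of their genes are known to respond to abscisic acid (ABA), the hormone of water deficit. LTP3 and LTP4 belong to the ABA- and drought-responsive members. TOR, the kinase whose dose the transgenes change, is a regulator of growth that responds to nutrients and energy.

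Whole leaves of 3 genotypes were sequenced in 3 water treatments, with 3 samples in each of the 9 groups. GC::AtTOR plants carried the full-length Arabidopsis TOR cDNA behind a tobacco promoter active in guard cells, 35S::AtTOR plants carried the same cDNA behind the CaMV 35S promoter, and WT was Col-0 with neither. Leaves were well-watered, or taken after 11 days without water (days 27 to 38 after germination), or after 4 further days of re-watering; the age of the well-watered leaves was not given. Several homozygous lines of each construct were combined in the study, and the labels do not say which line gave a sample. The paper names 3 biological replicates per genotype and condition, and the labels do not say that they were separate cultures of plants. The p-values therefore measure the spread between these samples. Guard cells are a small part of a leaf, and in whole leaves fewer cells of a type and less RNA per cell cannot be told apart.

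The values are the authors' normalized counts, read counts divided by a size factor for each sample. TOR itself stood at 8353 to 14667 normalized counts in the 35S::AtTOR samples and at 1060 to 1362 in all GC::AtTOR and WT samples, so the 35S label, but not the GC label, can be checked in whole leaves. Recovered reads numbered 10385851 to 16707106 in 25 of 26 samples. The exception was 35S::AtTOR re-watered replicate 1 with 2739872 reads, where 1 read equals 4.13 normalized counts, and the reads of 35S::AtTOR well-watered replicate 1 could not be recovered. All samples are labelled as 1 batch. Markers of tapetum and anther summed to at most 8.27 normalized counts in any sample, and markers of root to at most 20.4, in re-watered WT.

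The leading gene differed between treatments. Per kb of mRNA, the only scale on which genes are compared here, LTP1 led in well-watered leaves, LTP3 in drought GC::AtTOR and WT leaves, and LTP5 after re-watering. In well-watered leaves LTP1 held 49.8 ± 2.5% of the family's normalized counts per kb in GC::AtTOR, 45.01 ± 1.0% in 35S::AtTOR and 59.9 ± 8.0% in WT (SD, n = 3). LTP5 came next in GC::AtTOR (43.5 ± 3.0%) and WT (36.3 ± 7.8%), while in 35S::AtTOR LTP3 came next (26.9 ± 1.1%), above LTP5 (21.02 ± 3.0%) in every sample. In drought LTP3 held 56.0 ± 3.7% in GC::AtTOR, 42.3 ± 7.2% in 35S::AtTOR, level with LTP1 (42.2 ± 6.1%), and 57.2 ± 3.6% in WT. After re-watering LTP5 held 76.2 ± 1.9% in GC::AtTOR, 81.3 ± 3.6% in 35S::AtTOR and 88.5 ± 0.33% in WT. The summed level per kb was 9273 ± 422, 51839 ± 13519 and 6004 ± 458 in well-watered, drought and re-watered GC::AtTOR leaves, 16014 ± 4456, 27420 ± 11364 and 5065 ± 1568 in 35S::AtTOR, and 13042 ± 2116, 40532 ± 2740 and 5940 ± 235 in WT. The mean drought sum of each genotype lay above its own well-watered and re-watered sums, and in 35S::AtTOR its lowest drought sample (18100.1) lay below its highest well-watered sample (21044).

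**Figure D1:**
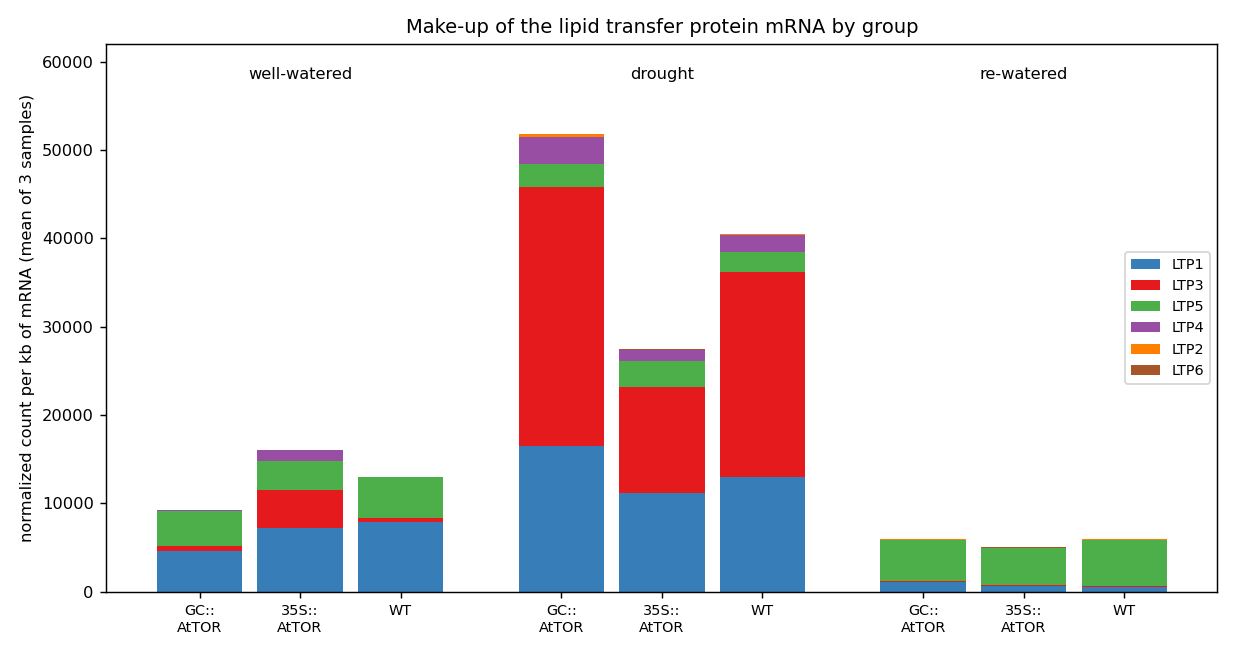
Stacked bars give the mean normalized count per kb of mRNA of each gene in the 9 groups (mean of 3 samples, linear axis from 0). The drought bars reach 51839 in GC::AtTOR, 27420 in 35S::AtTOR and 40532 in WT and are mostly LTP3 and LTP1, while the re-watered bars, 5065 to 6004, are mostly LTP5.

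**Figure D2:**
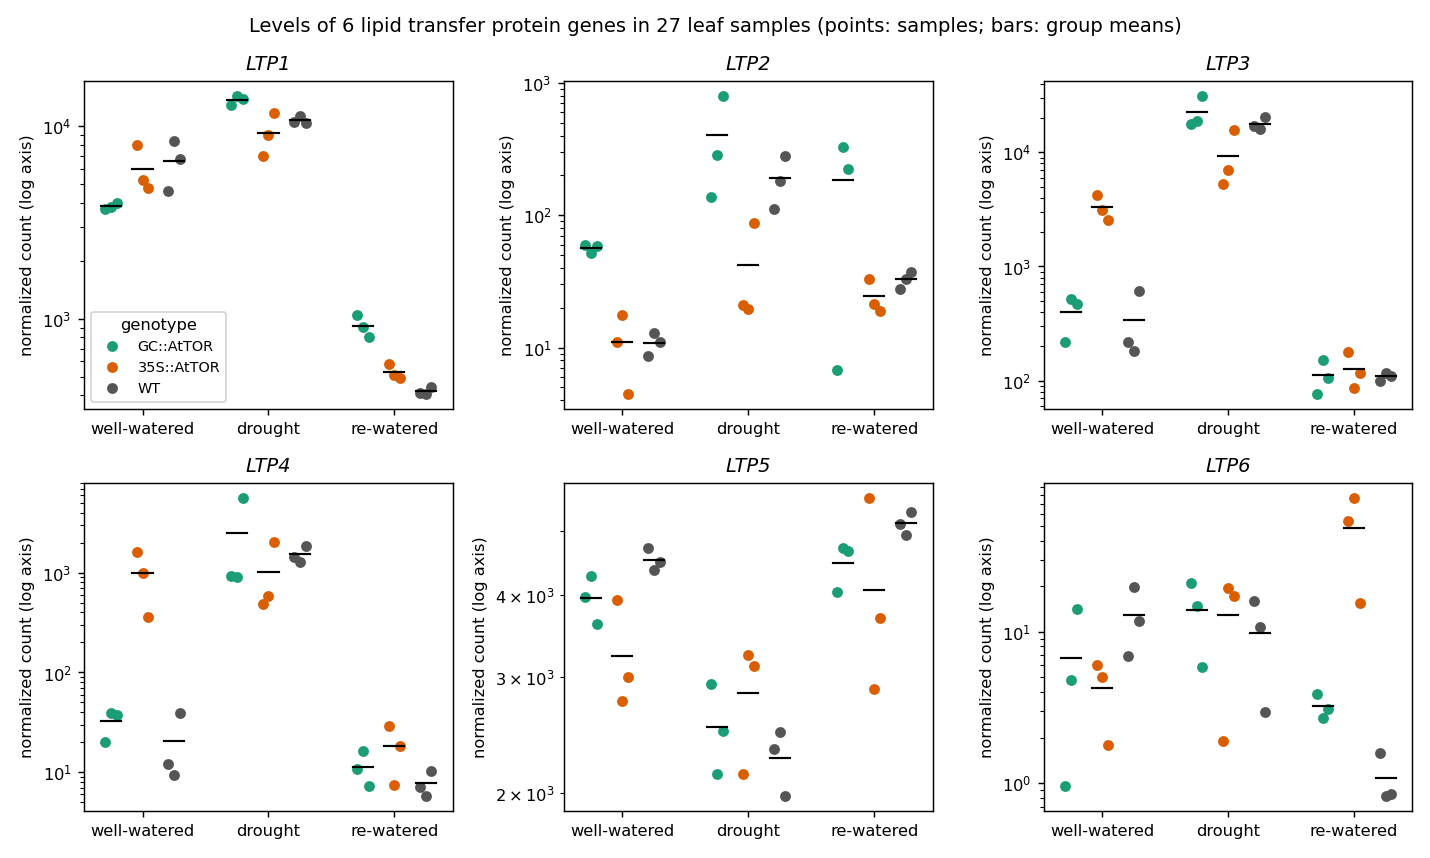
Each point is 1 leaf sample and each bar a group mean, in normalized counts on a log axis, for the 6 genes tested. LTP3 and LTP4 are high in every drought sample and also in well-watered 35S::AtTOR, where LTP3 lies between 2544 and 4224, and LTP5 stays within 1976 and 5629 throughout.

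LTP3 and LTP4 are neighbours on chromosome 5 that point away from each other. In the TAIR10.1 annotation of RefSeq, LTP3 lies at chr5:23928954-23929816 on the plus strand and LTP4 at chr5:23924990-23925957 on the minus strand, 2996 bases apart. Their coding sequences are alike, identical at 86.7% of aligned bases with a longest shared run of 44 bases, so reads could in part be assigned to the wrong copy. The 250 bases before each gene start are shown because the pair moved together. They come from RefSeq TAIR10.1, run 5′ to 3′ in the direction of the gene, and hold a match on either strand in capitals (here TAACTA or TAACTG, MYB core motifs).
LTP3 (chr5:23928704-23928953, plus strand): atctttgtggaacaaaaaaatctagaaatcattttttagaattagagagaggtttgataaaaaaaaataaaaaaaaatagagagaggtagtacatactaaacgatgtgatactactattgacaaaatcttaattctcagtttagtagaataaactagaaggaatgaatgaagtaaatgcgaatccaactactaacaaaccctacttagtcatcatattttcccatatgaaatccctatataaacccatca
LTP4 (chr5:23925958-23926207, minus strand): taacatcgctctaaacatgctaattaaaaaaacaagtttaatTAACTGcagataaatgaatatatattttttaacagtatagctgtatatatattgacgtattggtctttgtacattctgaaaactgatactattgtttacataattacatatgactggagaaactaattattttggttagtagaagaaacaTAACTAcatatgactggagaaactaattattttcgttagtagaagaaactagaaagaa
The search, on both strands, was for ACGTG (the core of the ABA-responsive element), CCGAC (the core of the dehydration-responsive element), the MYB cores TAACTA (in 20.6% of the same windows of 27437 protein-coding genes) and TAACTG (in 8.12%), and the evening element AAAATATCT (in 2.36%). The ABA-responsive core was in 22.9% of those windows and the dehydration-responsive core in 12.0%. The LTP3 window held none of them, and the LTP4 window held 1 TAACTA and 1 TAACTG. The longest exact run that the windows share is 9 bases; they were not aligned. The LTP4 window repeats a run of 29 bases, tacatatgactggagaaactaattatttt, at 104 to 76 and at 54 to 26 bases before the gene start.

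Drought raised both genes in GC::AtTOR and in WT. LTP3 stood at 17566, 18968 and 31193 normalized counts in drought GC::AtTOR leaves, against 219, 521 and 468 in well-watered ones. In WT it stood at 17119, 16022 and 20474 in drought, against 218, 181 and 614 in well-watered leaves. Every drought sample was far above every well-watered sample in both genotypes, and per kb LTP3 ranked 10 of 18693 genes in drought GC::AtTOR and 16 in drought WT leaves. The limma estimate on log2(normalized count + 1), the scale of all fold changes here, was 57.8-fold higher in GC::AtTOR (log2 5.85, SE 0.42, adjusted p = 8.37e-10) and 61.2-fold higher in WT (log2 5.94, SE 0.42, adjusted p = 1.04e-09). LTP4 stood at 934, 899.9 and 5679 in drought GC::AtTOR leaves, against 20.3, 39.5 and 37.3 in well-watered ones. In WT it stood at 1448, 1287 and 1855 in drought, against 12.2, 9.34 and 39.7 in well-watered leaves. GC::AtTOR drought replicate 3 was the highest sample of both genes, and every drought sample was above every well-watered one. LTP4 was 52.6-fold higher in GC::AtTOR (log2 5.72, SE 0.68, adjusted p = 5.21e-07) and 85.5-fold higher in WT (log2 6.42, SE 0.68, adjusted p = 1.84e-07). The first value was 6.32 with edgeR and 4.84 without GC::AtTOR drought replicate 3, and without WT well-watered replicate 3 the second was 7.02. Genes were called where the adjusted p, over all genes tested (Benjamini-Hochberg), was under 0.05 and the size of the log2 value exceeded 1.

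In 35S::AtTOR leaves the pair was high without drought. LTP3 stood at 4224, 3123 and 2544 normalized counts in well-watered 35S::AtTOR leaves, against 218, 181 and 614 in well-watered WT. LTP4 stood at 1604, 1004 and 364 in well-watered 35S::AtTOR leaves, against 12.2, 9.34 and 39.7 in well-watered WT. The lowest 35S::AtTOR sample was above the highest WT sample for both genes. LTP3 was 11.1-fold higher (log2 3.47, SE 0.42, adjusted p = 6.63e-05) and LTP4 47.3-fold higher (log2 5.57, SE 0.68, adjusted p = 6.63e-05) than in WT. The LTP4 value was 6.17 without 35S::AtTOR well-watered replicate 3 and likewise without WT well-watered replicate 3. These were the only 2 of the 6 genes called between 35S::AtTOR and WT in well-watered leaves, where 2.75% of all genes tested were called and 1.31% were called higher. Of 12 ABA and drought markers, 3 rose in the same comparison: RD29B by 3.19 on the log2 scale, RAB18 by 2.04 and ATHB-7 by 1.32 (adjusted p = 0.00154, 0.0114 and 0.0307), the first pair encoding late-embryogenesis-type protective proteins and the last a transcription factor. Well-watered GC::AtTOR leaves held LTP3 at 402.6 ± 161 and LTP4 at 32.3 ± 10.5, against 338 ± 240.2 and 20.4 ± 16.7 in WT (SD, n = 3), and neither was called. Cell type markers also differed between well-watered 35S::AtTOR and WT leaves. Summed mesophyll markers were at 201069 to 236266 in 35S::AtTOR, against 340951 to 405763 in WT, and phloem markers at 7861 to 7971, against 5112 to 5820. Summed epidermis markers were at 1919 to 2019, against 2561 to 3034, but their median log2 value was higher, at 7.21 to 7.36, against 7.10 to 7.16. The part of these marker lists in the LTP3 and LTP4 differences was not tested.

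The change in drought was smaller in 35S::AtTOR than in WT. LTP3 stood at 5310.0, 7056 and 15571 in drought 35S::AtTOR leaves, against 4224, 3123 and 2544 in well-watered ones, so the lowest drought sample was above the highest well-watered one. It was called 2.59-fold higher (log2 1.37, SE 0.42, adjusted p = 0.0212), a call lost without well-watered replicate 2 (1.35, adjusted p = 0.0590), well-watered replicate 3 (1.202, adjusted p = 0.0778) or drought replicate 3 (0.92, adjusted p = 0.149). LTP4 stood at 483, 586 and 2024 in drought 35S::AtTOR leaves, against 1604, 1004 and 364 in well-watered ones, and the groups overlapped. Its log2 fold change was -0.01 (SE 0.68, 95% interval -1.43 to 1.40, adjusted p = 0.995), an interval that includes changes of more than 2-fold in both directions. The drought response of 35S::AtTOR minus that of WT was -4.56 for LTP3 (SE 0.60, adjusted p = 0.000296) and -6.43 for LTP4 (SE 0.96, adjusted p = 0.000891) on the log2 scale, while that of GC::AtTOR minus that of WT was -0.08 and -0.70 (adjusted p = 0.978 and 0.827), with 0 of the 6 genes and 0.245% of all genes tested called by limma, 1 gene at an unadjusted p under 0.05, 0 called by edgeR and 1 by DESeq2. Without 35S::AtTOR drought replicate 3, 35S::AtTOR well-watered replicate 3 or WT well-watered replicate 3 the LTP4 difference was -7.07, -7.03 and -7.03, and it was -5.59 with edgeR and -5.63 with DESeq2. All edgeR and DESeq2 fits lacked 35S::AtTOR well-watered replicate 1, and limma without that sample gave -5.96. These differences reuse the well-watered samples of the comparison with WT above. For the difference of 35S::AtTOR from WT, 2 of the 6 genes and 3.45% of all genes tested were called. In drought itself LTP3 was at 9313 ± 5490.1 in 35S::AtTOR, against 17872 ± 2320 in WT (log2 -1.09, SE 0.42, adjusted p = 0.179), and was called only without 35S::AtTOR drought replicate 3 (-1.54, adjusted p = 0.0456).

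After re-watering both genes were low in every genotype. LTP3 stood at 75.8, 152 and 106 in re-watered GC::AtTOR leaves, at 178, 86.2 and 117 in 35S::AtTOR and at 98.8, 117 and 111 in WT. The 3 genotypes overlapped. Against drought leaves LTP3 was 202-fold lower in GC::AtTOR, 68.2-fold lower in 35S::AtTOR and 162-fold lower in WT, with adjusted p from 3.44e-12 to 1.75e-10. LTP4 stood at 7.19 to 16.1 in re-watered GC::AtTOR leaves, at 7.42 to 28.9 in 35S::AtTOR and at 5.76 to 10.2 in WT, and was 143-fold, 49.2-fold and 178-fold lower than in drought (log2 -7.16, -5.62 and -7.47). Without drought replicate 3 of GC::AtTOR and of 35S::AtTOR the first pair of values was -6.28 and -4.98, and the GC::AtTOR value was -7.77 with edgeR and -7.78 with DESeq2. Re-watered leaves were also below well-watered ones: LTP3 fell in all 3 genotypes (log2 -1.81 in GC::AtTOR, -4.72 in 35S::AtTOR and -1.41 in WT), and LTP4 fell in 35S::AtTOR (log2 -5.63, and -6.23 without 35S::AtTOR well-watered replicate 3). The WT call was lost without WT well-watered replicate 3 (-0.87, adjusted p = 0.0746). LTP4 was at -1.44 in GC::AtTOR and -1.05 in WT with no call (adjusted p = 0.0940 and 0.183). The re-watered response of 35S::AtTOR minus that of WT was -3.31 for LTP3 (adjusted p = 0.000258) and -4.58 for LTP4 (adjusted p = 0.000942). The LTP4 difference was -5.18 without WT well-watered replicate 3 and likewise without 35S::AtTOR well-watered replicate 3, and -3.92 with DESeq2. edgeR did not call it (-4.07, adjusted p = 0.0665).

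Re-watered leaves stood apart in other markers too. The summed level of 7 evening clock genes was 5887 to 6075 in re-watered GC::AtTOR leaves, 4405 to 5147 in 35S::AtTOR and 5146 to 5334 in WT, against 15055 to 15366, 17232 to 18763 and 15889 to 16092 in well-watered leaves. In the same order, 5, 6 and 5 of the 7 genes fell, where 7.95%, 9.92% and 15.8% of all genes tested were called lower. The sum of 4 morning clock genes was 21.4 to 68.1, 62.3 to 157 and 86.5 to 90.0 in re-watered leaves. Well-watered leaves held 95.8 to 118, 64.2 to 174 and 104 to 145, so it was also lower in GC::AtTOR and WT and overlapped in 35S::AtTOR. The sum of 10 touch and rapid wound genes was 71121 to 81318, 56516 to 65865 and 73740.4 to 76245 in re-watered leaves, against 17214 to 45427, 11112 to 24441 and 9054 to 11303 in well-watered ones. Their part in the re-watered results for any gene here was not tested.

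The mean proportion of LTP3 to LTP4 was lowest in well-watered 35S::AtTOR leaves. Per kb, LTP3 exceeded LTP4 by 13.1-fold in well-watered GC::AtTOR leaves (11.7 to 14.2), by 4.58-fold in 35S::AtTOR (2.84 to 7.54) and by 18.97-fold in WT (16.7 to 20.9). These 3 well-watered ranges did not overlap. In drought the ratio was 16.3 in GC::AtTOR (5.93 to 22.8), 11.1 in 35S::AtTOR (8.30 to 13.0) and 12.7 in WT (11.9 to 13.4), and the ranges overlapped. After re-watering it was 11.2 in GC::AtTOR (7.65 to 15.9), 8.71 in 35S::AtTOR (6.63 to 12.5) and 16.2 in WT (11.7 to 21.9). The well-watered 35S::AtTOR range overlapped with those of re-watered 35S::AtTOR and drought GC::AtTOR leaves.

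**Figure D3:**
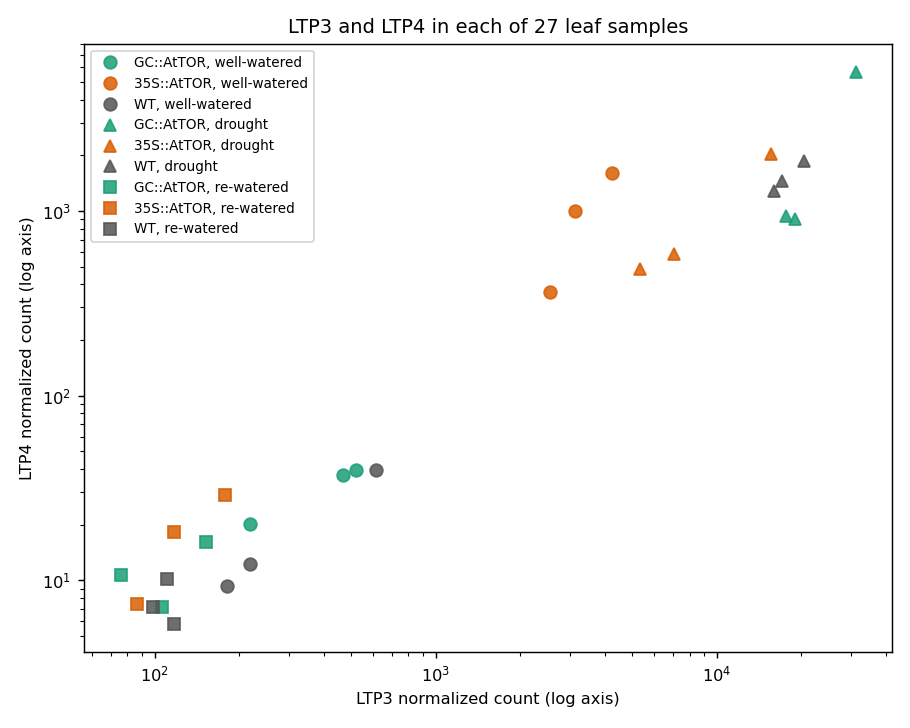
Each point is 1 of 27 leaf samples, with LTP3 on the x axis and LTP4 on the y axis in normalized counts, both on log axes. The well-watered 35S::AtTOR samples (LTP3 2544 to 4224, LTP4 364 to 1604) lie apart from the well-watered GC::AtTOR and WT samples (LTP3 181 to 614, LTP4 9.34 to 39.7) and beside the drought samples.

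LTP1 and LTP2 also lie side by side, on chromosome 2 and the same strand, at chr2:16130290-16131240 and chr2:16128176-16129399 with 890 bases between them. Their coding sequences are identical at 82.4% of aligned bases, with a longest shared run of 27 bases, yet their levels differed by far. Their upstream windows are shown because this pair did not move together, in the form used for LTP3 and LTP4.
LTP1 (chr2:16130040-16130289, plus strand): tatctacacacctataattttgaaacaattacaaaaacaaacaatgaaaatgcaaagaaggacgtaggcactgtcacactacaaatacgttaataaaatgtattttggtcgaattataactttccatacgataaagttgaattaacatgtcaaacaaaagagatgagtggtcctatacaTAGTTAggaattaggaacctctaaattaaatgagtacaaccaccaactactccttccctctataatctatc
LTP2 (chr2:16127926-16128175, plus strand): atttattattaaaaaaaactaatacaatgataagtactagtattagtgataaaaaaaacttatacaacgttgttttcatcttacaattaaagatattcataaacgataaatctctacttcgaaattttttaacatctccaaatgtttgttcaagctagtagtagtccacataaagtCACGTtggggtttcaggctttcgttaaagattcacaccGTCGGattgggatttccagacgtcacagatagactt
The capitals mark TAACTA, read on the other strand, in LTP1, and ACGTG and then CCGAC, both read on the other strand, in LTP2. LTP2 was the only one of the 7 genes whose window held ACGTG, at 74 to 70 bases before the gene start, and LTP2 and LTP12 held CCGAC. These matches describe letters and do not show that a factor binds there.

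LTP1, a cell wall protein that binds phospholipids, was abundant in well-watered and drought leaves and lowest after re-watering. In GC::AtTOR it stood at 3716, 3808 and 3992 in well-watered, at 12932, 14386 and 13894 in drought, and at 1042, 902 and 802 in re-watered leaves. In 35S::AtTOR it stood at 7973, 5262 and 4774, at 7000.0, 9019 and 11734, and at 583, 513 and 495, in the same order of treatments. In WT it stood at 4634, 8388 and 6765, at 10562.5, 11330.1 and 10440.4, and at 412, 405 and 439.7. The re-watered samples were below all others in each genotype, and drought overlapped with well-watered leaves only in 35S::AtTOR. Drought raised LTP1 3.58-fold in GC::AtTOR (log2 1.84, SE 0.19, adjusted p = 9.04e-08), while the log2 fold change was 0.63 in 35S::AtTOR and 0.75 in WT (SE 0.19 each, adjusted p = 0.0194 and 0.00254), under the size asked of a call. The drought response of GC::AtTOR minus that of WT was 1.09 (SE 0.27, adjusted p = 0.0871), not called by limma. DESeq2 called it (1.13, adjusted p = 0.00201), as did limma without WT well-watered replicate 1 (1.32), GC::AtTOR well-watered replicate 3 (1.12), WT drought replicate 3 (1.07) or GC::AtTOR drought replicate 1 (1.13). With samples scaled to equal totals the WT value was 1.02 (adjusted p = 7.92e-05) and was called. Against well-watered leaves, re-watered leaves held 4.21-fold less in GC::AtTOR, 11.0-fold less in 35S::AtTOR and 15.3-fold less in WT.

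The genotypes differed in LTP1 after re-watering. The 3 GC::AtTOR samples (802 to 1042) were all above the 3 WT samples (405 to 439.7), 2.17-fold on average (log2 1.12, SE 0.19, adjusted p = 7.52e-05), while 35S::AtTOR was at 0.34 on the log2 scale (SE 0.19, adjusted p = 0.170). By limma LTP1 was the only 1 of the 6 genes called between GC::AtTOR and WT there, where 14.6% of all genes tested were called, a share near 1 in 6. edgeR and DESeq2 also called LTP2. The re-watered response of GC::AtTOR minus that of WT was 1.86 (SE 0.27, adjusted p = 2.88e-05), with 16.7% of all genes tested called. Well-watered GC::AtTOR leaves held LTP1 below all WT samples (log2 -0.74, SE 0.19, adjusted p = 0.0534). No member was called between GC::AtTOR and WT in well-watered leaves (1.07% of all genes tested) or in drought (0.016%). At an unadjusted p under 0.05 there were 2 genes in well-watered leaves and 0 in drought, and edgeR and DESeq2 called 0 in both. Epidermis markers summed to 1972 to 2491 normalized counts in re-watered GC::AtTOR leaves, against 1752 to 1862 in re-watered WT. Mesophyll markers summed to 214804 to 272147 in re-watered GC::AtTOR, against 94378 to 104760 in WT, again with no overlap. The part of either in the LTP1 difference was not tested.

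LTP2 was below LTP1 per kb in every group, and uneven. It stood at 59.8, 51.5 and 58.1 in well-watered GC::AtTOR leaves, at 11.0, 17.5 and 4.44 in 35S::AtTOR and at 8.71, 12.8 and 11.0 in WT. In drought it stood at 137, 285 and 796 in GC::AtTOR, at 21.0, 19.5 and 86.7 in 35S::AtTOR and at 111, 179.9 and 280.5 in WT. After re-watering it stood at 6.80, 325 and 223 in GC::AtTOR, at 33.1, 21.3 and 19.03 in 35S::AtTOR and at 27.9, 32.9 and 37.4 in WT. The well-watered GC::AtTOR samples were tight and above all WT samples, and re-watered GC::AtTOR replicate 1 was far below the rest of its group. Drought raised LTP2 15.3-fold in WT (log2 3.93, SE 0.91, adjusted p = 0.00112) and 5.51-fold in GC::AtTOR (log2 2.46, SE 0.91, adjusted p = 0.0246), and it was at 1.68 in 35S::AtTOR (SE 0.91, adjusted p = 0.179). The GC::AtTOR call was lost without GC::AtTOR drought replicate 3 (1.79, adjusted p = 0.134) or well-watered replicate 2 (2.40, adjusted p = 0.0586), and with the library number as a block (2.12, adjusted p = 0.0569). It was 3.06 without drought replicate 1. The difference of GC::AtTOR from WT was 2.29 in well-watered leaves (SE 0.91, adjusted p = 0.207). All groups share 1 spread in the fit, and without the low re-watered replicate 1 of GC::AtTOR several values were called: that one (adjusted p = 0.0362), GC::AtTOR against WT after re-watering (3.01, adjusted p = 0.000652, against 1.31 and 0.258 with it, and 2.51 and 0.0132 with edgeR and 2.50 and 0.00901 with DESeq2 on all samples) and 35S::AtTOR against WT in drought (-2.39, adjusted p = 0.0207, against 0.167 with it). The same fit also called drought against well-watered 35S::AtTOR leaves (1.68, adjusted p = 0.0289). It called re-watered against well-watered WT leaves as well (1.52, adjusted p = 0.0216, against 0.151 with all samples).

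LTP5, known from pollen tube growth in the pistil, varied least of the 6 genes and was lower in drought WT leaves. In GC::AtTOR it stood at 3968, 4275 and 3614 in well-watered, at 2931, 2135 and 2482 in drought, and at 4048, 4713 and 4673 in re-watered leaves. In 35S::AtTOR it stood at 3933, 2759.6 and 3005, at 2133, 3244 and 3121, and at 5629, 2879 and 3686. In WT it stood at 4717, 4363 and 4498, at 2328, 2478 and 1976, and at 5134, 4943 and 5356. Drought samples were below well-watered and re-watered ones in GC::AtTOR and WT, and overlapped with both in 35S::AtTOR. LTP5 was called 2.01-fold lower in drought WT leaves (log2 -1.01, SE 0.19, adjusted p = 0.000159), and the log2 fold change was -0.66 in GC::AtTOR (SE 0.19, adjusted p = 0.00533) and -0.20 in 35S::AtTOR (SE 0.19, adjusted p = 0.470). The WT value sat at the size limit and passed below it with equal sample totals (-0.73), with edgeR (-0.97), with the library number as a block (-0.99), and without WT well-watered replicate 1 (-0.98) or drought replicate 3 (-0.91). Re-watered WT leaves held 2.28-fold more LTP5 than drought WT leaves (log2 1.19, SE 0.19, adjusted p = 1.35e-05).

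LTP6 was scarce in every group and highest in re-watered 35S::AtTOR leaves. There it stood at 53.7, 77.0 and 15.6 normalized counts, from 13, 83 and 18 reads, against 1.59, 0.82 and 0.85 in re-watered WT, from 2, 1 and 1 reads. Re-watered GC::AtTOR leaves held 3.89, 2.69 and 3.08. All 35S::AtTOR samples were above all others of that treatment. The summed reads, 114 against 4, gave a ratio of 42.0 to WT after scaling for library size (95% interval 15.9 to 157, exact Clopper-Pearson, counting error only). The fitted difference was 4.33 on the log2 scale (SE 0.77, adjusted p = 0.000164), and it was 2.93 with 5 added before the logarithm, 5.31 with edgeR and 5.47 with DESeq2. Without the shallow 35S::AtTOR re-watered replicate 1 it was 4.12 (adjusted p = 0.00134), and without replicate 3 it was 4.99. LTP6 was the only 1 of the 6 genes called between 35S::AtTOR and WT after re-watering, where 10% of all genes tested were called. Re-watered against well-watered, LTP6 rose in 35S::AtTOR (log2 3.08, SE 0.77, adjusted p = 0.00215) and fell in WT (log2 -2.64, SE 0.77, adjusted p = 0.00526; 6.97, 19.9 and 11.8 in well-watered WT leaves). The 35S::AtTOR value was 3.74 without 35S::AtTOR re-watered replicate 3, 2.35 with 5 added, 3.76 with edgeR and 3.83 with DESeq2, and the WT value -1.49, -3.37 and -3.54 in the last 3 settings. The responses differed by 5.72 (SE 1.09, adjusted p = 0.000418), with 3 of the 6 genes and 15.5% of all genes tested called. That difference was 6.38 without 35S::AtTOR re-watered replicate 3, 3.84 with 5 added, 7.13 with edgeR and 7.37 with DESeq2. Mesophyll markers summed to 123051 to 188122 in re-watered 35S::AtTOR leaves, against 94378 to 104760 in WT. Summed epidermis markers were lower there, at 1030 to 1579, against 1752 to 1862 in WT. The median log2 values of the epidermis markers overlapped, at 6.52 to 7.01, against 6.35 to 6.97 in WT. The part of either in the LTP6 difference was not tested. In drought LTP6 spanned 5.85 to 21.1 in GC::AtTOR, 1.91 to 19.5 in 35S::AtTOR and 2.95 to 15.9 in WT, and the ranges overlapped.

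LTP12, known from the tapetum of anthers, gave 2 reads in all of the 26 samples with recovered reads, 1 in a re-watered GC::AtTOR and 1 in a re-watered WT sample. It was listed at 0 in the other samples. A count of 0 allows up to 3 reads in a library. It lies 1662 bases from LTP5 on the same strand of chromosome 3.

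Counted over the family, drought against well-watered leaves gave 4 of 6 calls in GC::AtTOR (4 higher), 1 in 35S::AtTOR (1 higher) and 4 in WT (3 higher, 1 lower), where 25%, 7.76% and 20.4% of all genes tested were called, 8.02%, 2.32% and 7.61% higher and 17%, 5.44% and 12.8% lower. The median log2 fold change of the 6 genes was 2.15, 0.85 and 2.34, against -0.03, -0.01 and -0.03 over all genes tested. Re-watered against well-watered leaves gave 2, 4 and 3 calls, of which LTP6 in 35S::AtTOR was the only one higher, where 14.6%, 19.6% and 30.2% of all genes tested were called and 7.95%, 9.92% and 15.8% were called lower. Re-watered against drought leaves gave 3, 4 and 6 calls, with LTP6 in 35S::AtTOR and LTP5 in WT higher and the rest lower, where 28.2%, 21.2% and 28% of all genes tested were called and 10.4%, 9.27% and 12.5% were called lower. In drought no member was called between 35S::AtTOR and WT (1.55% of all genes tested); 2 had an unadjusted p under 0.05, and edgeR and DESeq2 called 0. Among the re-watered against drought calls, that of LTP6 in 35S::AtTOR was lost without drought replicate 1 (1.10), re-watered replicate 1 (1.81) or replicate 2 (1.55) or with the compared groups only (adjusted p = 0.0725), and it was 2.67 without re-watered replicate 3. In WT the call of LTP2 was lost without drought replicate 2 or 3 or re-watered replicate 1 or 2 (-2.42 to -2.09), and that of LTP6 without drought replicate 1 or 2 or re-watered replicate 2 or 3 (-2.08 to -1.72) or with 5 added (-1.18, adjusted p = 0.0564). The LTP6 value in WT was -2.77 without drought replicate 3, -3.06 with edgeR and -3.17 with DESeq2, against -2.16. These comparisons share their samples, and some also their controls.

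**Figure D4:**
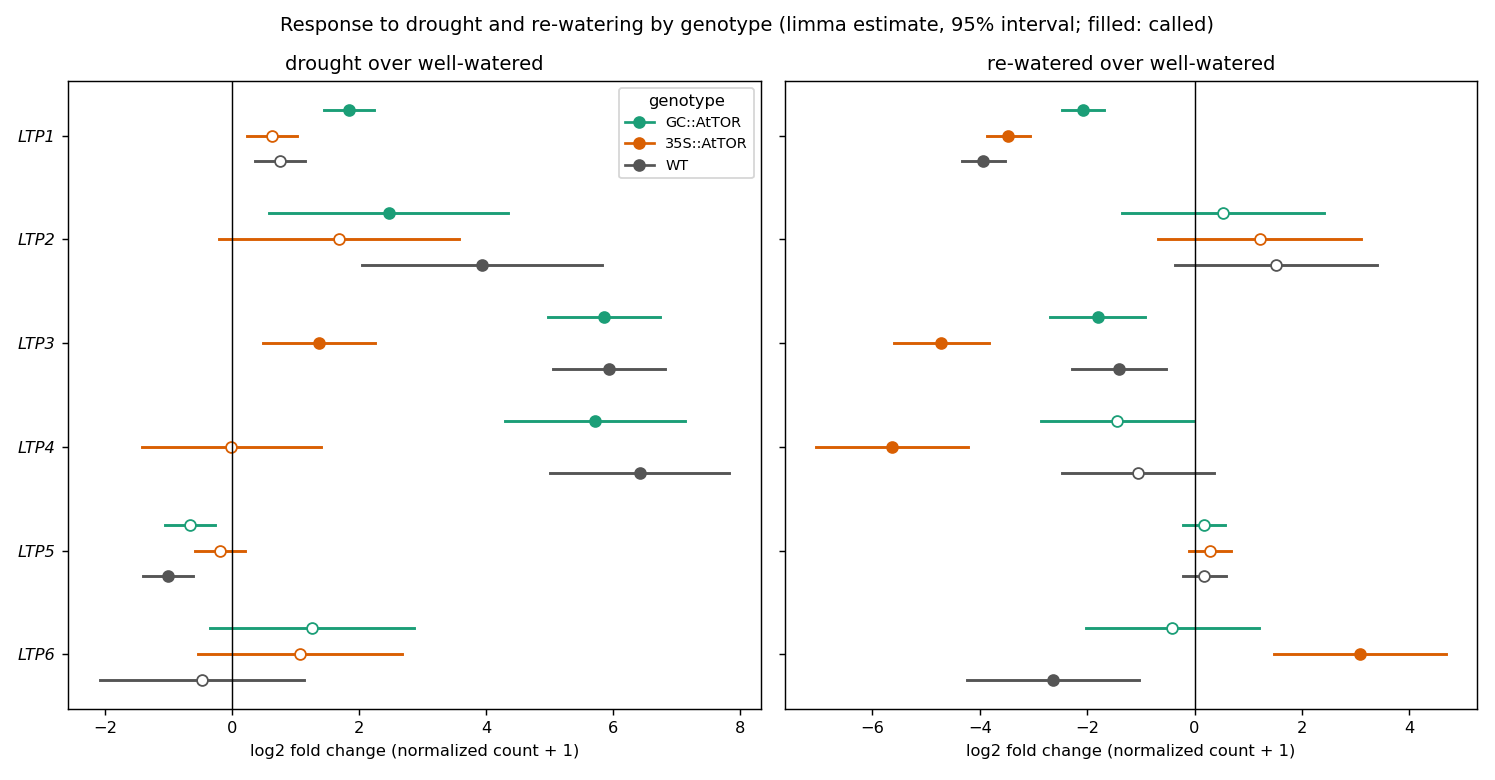
Points are limma log2 fold changes and lines their 95% intervals, drought over well-watered leaves on the left and re-watered over well-watered leaves on the right, by genotype; filled points were called. In drought LTP3 and LTP4 lie between 5.72 and 6.42 in GC::AtTOR and WT and at 1.37 and -0.01 in 35S::AtTOR, and LTP6 after re-watering is above 0 in 35S::AtTOR (3.08) and below 0 in WT (-2.64).

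**Figure D5:**
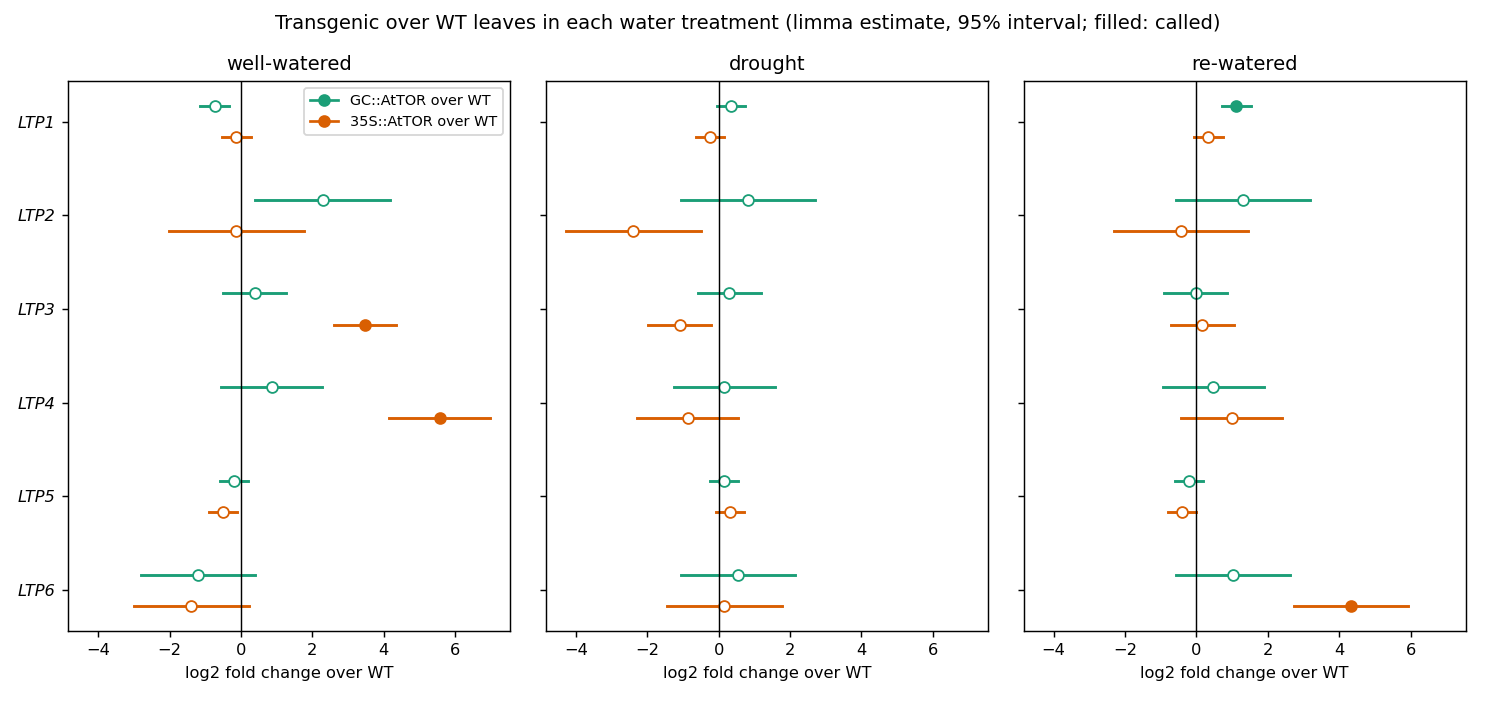
Points are limma log2 fold changes of each transgenic genotype over WT and lines their 95% intervals, with 1 panel per water treatment; filled points were called. The filled points are LTP3 (3.47) and LTP4 (5.57) in well-watered 35S::AtTOR, LTP1 (1.12) in re-watered GC::AtTOR and LTP6 (4.33) in re-watered 35S::AtTOR.

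The profile of each gene over the 9 group means was compared with all other genes tested by the root mean square difference in log2(normalized count + 1), each profile centred on its mean, as a description. LTP4 was 0.58 from LTP3, the smallest distance within the family, where the others were 1.35 to 3.51 apart. The gene nearest to LTP3 outside the family was BFT at 0.26, a relative of FLOWERING LOCUS T, followed by AT3G02480 at 0.56 and DAA1 at 0.66. BFT was also nearest to LTP4, at 0.64. BFT averaged 3.21, 28.7 and 1.53 normalized counts in well-watered GC::AtTOR, 35S::AtTOR and WT leaves, and 132, 94.98 and 166 in drought. In re-watered leaves BFT averaged 0, 0 and 0.28 and AT3G02480 averaged 0 in each genotype, against 111, 127 and 109 for LTP3. There both genes were at or near the floor of the scale, and their distances rest in part on it. For LTP1 the nearest were SQS2 (0.30), AT4G06536 (0.30) and COR15A (0.31), the last a cold- and drought-responsive chloroplast protein. The nearest to LTP5 were SOS5 (0.10), AT1G48610 (0.11) and AT5G57210 (0.11). LTP2 and LTP6 had no gene nearer than 0.73 and 0.76. These genes share the libraries and the 9 groups with the members.

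Related gene lists give the setting. Of 12 ABA and drought markers, 9, 7 and 7 rose in drought against well-watered GC::AtTOR, 35S::AtTOR and WT leaves, and 1, 0 and 1 fell. Over all genes tested, 8.02%, 2.32% and 7.61% were called higher and 17%, 5.44% and 12.8% lower. RAB18 rose by 7.19, 3.03 and 6.37 on the log2 scale, and RD29B by 7.16, 2.71 and 6.92. Of 8 other numbered lipid transfer protein genes only 2 could be tested. LTP7 averaged 604, 547 and 843 in well-watered and 146, 323 and 169 in drought leaves, lower by log2 -2.14 in GC::AtTOR and -2.33 in WT, with no call in 35S::AtTOR (-0.76). Of 13 genes for lipid transfer proteins tethered to the membrane by a GPI anchor, 11 were tested, and in drought 2, 1 and 1 rose and 8, 2 and 3 fell, where 17%, 5.44% and 12.8% of all genes tested were called lower. XYP1, one of a pair of xylogen genes linked to vessel formation, rose in each genotype (2.54, 1.22 and 2.58), while its partner XYP2 fell (-1.99, -1.36 and -1.65) and so did LTPG6 (-1.68, -1.02 and -2.05). Summed epidermis markers were lower in drought, at 1043 to 1392 in GC::AtTOR, 1289 to 1483 in 35S::AtTOR and 1130 to 1217 in WT leaves, against 2047 to 2123, 1919 to 2019 and 2561 to 3034 in well-watered ones; of the 4 tested, 3 fell in WT and none was called in GC::AtTOR or 35S::AtTOR. In the same order, guard cell markers summed to 167 to 219, 239 to 311 and 128 to 158 in drought. Well-watered leaves held 571 to 805, 592 to 746 and 459 to 633. Mesophyll markers summed to 56766 to 155876, 137776 to 172063 and 102312 to 129200 in drought. Well-watered leaves held 252701 to 349887, 201069 to 236266 and 340951 to 405763. Summed phloem markers were higher in drought in GC::AtTOR (7473 to 12793, against 4955 to 6429) and WT (8756 to 10424, against 5112 to 5820). The sums overlapped in 35S::AtTOR. The median log2 values of the phloem markers overlapped in GC::AtTOR (9.44 to 9.83, against 9.49 to 9.61). They were slightly higher in drought WT (9.67 to 9.71, against 9.57 to 9.66) and lower in drought 35S::AtTOR leaves (9.85 to 9.93, against 10.10 to 10.12). The part of these markers in the results was not tested.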

How the data were processed

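Illumina reads from 27 leaf samples were trimmed with Trimmomatic, aligned with STAR to TAIR10, quantified with Salmon and summed to genes by the authors, with CASAVA also named in the submitters' processing notes; versions are not given in the sources used here. The deposited signal values were read counts per gene that the authors scaled by DESeq2 size factors; gene length was not corrected for. Division by each sample's smallest step gave whole reads for 100% of values (tolerance 0.1) in 26 samples; 35S::AtTOR well-watered replicate 1 did not allow it and was left out of the count tests.

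The design was planned for this unit: limma 3.58.1 (R 4.3.3) on log2(normalized count + 1), 1 model of 9 groups with 18 residual degrees of freedom, eBayes with trend, 2-sided, 19 comparisons, each adjusted over 18785 genes. edgeR 4.0.16 and DESeq2 1.42.0 on the recovered reads were alternatives; of 18785 genes in WT drought against well-watered leaves, limma called 3837, edgeR 3872 and DESeq2 3891. The script was tested on simulated data. Pseudocounts of 0.5 and 5, a minimum mean of 50, no filter, equal totals, robust eBayes, blocks, only the compared groups and leaving out each sample were also tried.

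Named genes are the members, TOR, genes of the lists named in the text (other lipid transfer proteins, cutin, wax, ABA, clock, touch and cell type markers) and the 3 genes most like each member in profile. Members and lists were chosen with earlier results of these data known. Positions and upstream windows are from RefSeq TAIR10.1 by locus (Biopython 1.88 aligned coding sequences); the deposited values carry no coordinates. Per kb values divide by annotated mRNA length. Intervals and limits from reads cover counting error only.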

Additional observations from a re-analysis of the deposited data

Results flagged for a closer look

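For 6 results the response of a transgenic genotype differed from that of WT by the test of the difference itself, the interaction term of limma with Benjamini-Hochberg adjustment over all genes tested (3 samples per group). The drought response of 35S::AtTOR minus that of WT was -4.56 on the log2 scale for LTP3 (adjusted p = 0.000296) and -6.43 for LTP4 (adjusted p = 0.000891). The re-watered response of 35S::AtTOR minus that of WT was -3.31 for LTP3 (adjusted p = 0.000258), -4.58 for LTP4 (adjusted p = 0.000942; 0.0665 with edgeR) and 5.72 for LTP6 (adjusted p = 0.000418). The re-watered response of GC::AtTOR minus that of WT was 1.86 for LTP1 (adjusted p = 2.88e-05). The well-watered samples enter both kinds of response, so these results are not independent of each other.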

How the results depend on the processing

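Of 114 member fold changes (6 genes in 19 comparisons), 41 were called. Of these, 29 kept their call under all 11 alternatives and all 27 leave-one-out fits, 4 (LTP6) kept it wherever they were tested but were not tested with a minimum mean of 50, 8 lost it in at least 1, and 0 changed sign; of the 73 not called, 19 changed sign and 15 were called somewhere. LTP4 in drought against well-watered 35S::AtTOR leaves was 0.076 with equal sample totals, 0.61 with edgeR and 0.59 with DESeq2, against -0.01, and spanned -0.65 to 0.46 without each sample in turn. Both count tests lacked 35S::AtTOR well-watered replicate 1, and limma without that sample gave 0.46. Equal totals shifted the median of all genes by 0.27 in drought against well-watered GC::AtTOR and WT leaves and by 0.22, 0.22 and 0.32 in re-watered against well-watered GC::AtTOR, 35S::AtTOR and WT leaves, by 0.13 in re-watered against drought 35S::AtTOR leaves, by 0.11 between well-watered 35S::AtTOR and WT leaves, and by -0.18 and -0.10 for the drought and re-watered responses of 35S::AtTOR minus those of WT. The count of members called between GC::AtTOR and WT in well-watered leaves was 1 with the compared groups only, against 0. After re-watering it was 2 with edgeR and with DESeq2, against 1. Between 35S::AtTOR and WT after re-watering it was 0 with a minimum mean of 50, which drops LTP6, against 1. For the drought response of GC::AtTOR minus that of WT it was 1 (LTP1) with DESeq2, against 0. The cause was not tested.

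Leaving out each sample gave counts of members called of 3 to 5 in GC::AtTOR, 0 to 2 in 35S::AtTOR and 3 to 4 in WT for drought against well-watered leaves, 2 to 3, 4 to 4 and 2 to 4 for re-watered against well-watered, and 3 to 4, 3 to 4 and 4 to 6 for re-watered against drought. Against WT they were 0 to 1, 0 to 0 and 1 to 2 for GC::AtTOR in well-watered, drought and re-watered leaves, and 2 to 2, 0 to 1 and 1 to 1 for 35S::AtTOR. For the drought response minus that of WT they were 0 to 1 in GC::AtTOR and 2 to 3 in 35S::AtTOR, and for the re-watered response 1 to 2 and 3 to 3.

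With the replicate number as a block the count was 4 in GC::AtTOR and 1 in 35S::AtTOR for drought against well-watered leaves, as without it, and no count of members called changed. With the library number as a block it was 3 in GC::AtTOR and 3 in WT for drought against well-watered leaves and 4 in GC::AtTOR for re-watered against drought, against 4, 4 and 3. By replicate number, in 0 of 36 pairs of groups were all 3 correlations of same-numbered samples above 0.1. Only 8 of 36 pairs of groups shared 3 library numbers, and in 0 of these were all above 0.1. Where 2 were shared, both were above 0.1 for drought GC::AtTOR with drought 35S::AtTOR (0.37 and 0.42). The same held for well-watered 35S::AtTOR with drought WT (0.11 and 0.31). With so few shared numbers, the correlations cannot decide whether library numbers pair the samples.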

Other observations

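Genes of the DIR1 and AZI1 type, which carry lipid transfer domains and act in systemic defence, were also measured. Their levels are given as a description with no test, since AT4G12490 and AT4G12500 passed the filter on low values only through well-watered GC::AtTOR leaves. In well-watered leaves EARLI1 lay at 22.2 to 156 normalized counts in GC::AtTOR and at 0 in all WT samples, AT4G12490 at 17.96 to 46.02 in GC::AtTOR and at most 0.871 in WT, AT4G12500 at 3.59 to 41.6 in GC::AtTOR and at 0 in WT, and AZI1 at 8.38 to 19.3 in GC::AtTOR and at most 2.61 in WT. Summed touch and rapid wound genes were also higher in those leaves, 17214 to 45427 in GC::AtTOR, against 9054 to 11303 in WT, and their part was not tested. In drought all 4 were at 0 in every GC::AtTOR and WT sample. In drought 35S::AtTOR leaves the 6 listed genes of this type summed to at most 0.956. In well-watered leaves the 6 summed to 56.3 to 255 in GC::AtTOR, 0 to 50.9 in 35S::AtTOR and 1.17 to 3.48 in WT. After re-watering the order was reversed, with 5.14 to 12.6 in GC::AtTOR, 12.1 to 20.4 in 35S::AtTOR and 28.1 to 56.8 in WT.

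Genes of the cuticle, the layer that lipid transfer proteins are thought to feed, gave other counts. Of 13 cutin genes tested, 4, 1 and 7 fell in drought GC::AtTOR, 35S::AtTOR and WT leaves and 0 rose, where 17%, 5.44% and 12.8% of all genes tested were called lower. Of 14 wax genes tested, 3 rose and 2 fell in GC::AtTOR, 1 fell in 35S::AtTOR and 2 fell in WT. The share of all genes tested that was called higher was 8.02%, 2.32% and 7.61%. CER1, an enzyme of alkane formation, rose by 2.81 in GC::AtTOR and was 0.13 in 35S::AtTOR and 0.62 in WT with no call; it fell after re-watering in all 3 genotypes (-1.94, -5.19 and -5.73 against well-watered leaves).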
